A study of Mus musculus with 6 samples.

Results

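The genes described here are 10 that encode inflammasome sensors and the proteins that carry out pyroptosis, taken by symbol from a table of 46095 genes: the sensors Nlrp3, Nlrp1b, Nlrc4, Aim2 and Mefv, the adaptor Pycard, the caspases Casp1, Casp4 and Casp8, and the pore-forming protein Gsdmd. All 10 were in the table and all 10 passed the filter on low counts. They were measured by RNA sequencing in bone marrow-derived macrophages of C57BL/6 mice at postnatal day 56, either wild type (WT) or lacking Cd226 (Cd226-/-), which encodes an activating adhesion receptor also called DNAM-1. Every culture received M-CSF at 20 ng/ml for 7 days and then IFN-γ at 20 ng/ml together with LPS at 100 ng/ml for 24 h, so both genotypes were stimulated and no unstimulated cells were analysed here. There were 3 libraries of each genotype. The labels do not say how the deletion was made. Nor do they tell whether replicates were grown from different animals, and the p-values cover only library-to-library spread, which may be technical.

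An inflammasome is a protein complex that forms in the cytosol when a sensor meets a microbial product or a sign of damage. The sensor recruits the adaptor ASC, encoded by Pycard, and the adaptor gathers caspase-1, which then cleaves the precursors of IL-1β and IL-18 and opens gasdermin D. The freed part of gasdermin D builds pores in the plasma membrane, and the lytic death that follows is called pyroptosis. In macrophages LPS acts as a priming signal for part of this system, and most of the later steps are controlled on the protein, which RNA counts do not show.

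Total counts were 16838527 to 21658061 per library, and a count of 1 equalled 0.0452 to 0.06 CPM, a gene's counts relative to the TMM-scaled size of the library. Cd226 itself was counted 5, 17 and 23 times in the WT libraries and 11, 10 and 8 times in the Cd226-/- libraries. It did not pass edgeR's quasi-likelihood test with Benjamini-Hochberg adjustment (log2 fold change -0.50 ± 0.50 (SE), adjusted p = 0.480), so the counts did not check the labels. Macrophage markers were present at a summed 17900 to 19900 CPM in WT and 19200 to 20000 CPM in Cd226-/-, of which Cd163 and Mrc1 were below 7 CPM except in Cd226-/- replicate 3 (7.03 and 14.5 CPM), and 4 of the 10 were higher and 3 lower. The markers of the M1 stimulus summed to 13100 to 15300 CPM in WT and 15900 to 16800 in Cd226-/-, which did not overlap, with 7 of 10 genes higher and 1 lower. Summed markers of B cells (20.3 to 23.8 CPM in WT, 46.3 to 59.6 in Cd226-/-; 7 of 8 tested genes higher), dendritic cells (155 to 162 and 220 to 234; 4 of 7 higher) and stromal cells (510 to 593 and 796 to 832; 7 of 8 higher) moved with the genotype as well. Those of neutrophils (71.6 to 89.2 and 73.3 to 80.9), of T and NK cells (5.61 to 8.87 and 8.32 to 9.59), of mast cells and basophils (49.4 to 57.8 and 49.9 to 51.6) and of erythroid cells and megakaryocytes (4.27 to 6.69 and 2.15 to 5.46) overlapped. Of 7 tested mast cell and basophil genes, however, 2 were higher (Cpa3 and Mcpt4) and 2 lower (Gata2 and Kit), which a sum can hide. In the rest of these overlapping lists 0 tested genes passed. In hepatocyte transcripts Cd226-/- replicates 2 and 3 stood apart from the other 4 libraries: 9 hepatocyte genes had 374 and 414 counts in them (Alb 266 and 279) against 0 to 5 elsewhere. The tenth, Trf, was a transcript of all 6 libraries at a mean of 220 CPM in WT and 232 in Cd226-/-. Replicates 2 and 3 were also the most alike pair within a genotype (chi-square over degrees of freedom 2.17, against 7.61 and 7.76 for replicate 1 with each). Pairs of WT libraries had 3.79 to 6.32, so Cd226-/- replicate 1 differed most from the others of its genotype. The part of these marker differences in the results was not tested, and in bulk RNA fewer cells of a type and less RNA per cell cannot be told apart. Results are also given for Cd226-/- replicate 1 alone against WT, a fit that takes its spread from WT and assumes the same spread in Cd226-/-.

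Of the 10 genes, 4 were higher in Cd226-/- and 0 were lower (edgeR's quasi-likelihood test, threshold 0.05 after Benjamini-Hochberg adjustment). Mefv, the sensor pyrin, rose 1.55-fold, and Gsdmd, the pore former, rose 1.25-fold. Nlrc4 and Nlrp3 rose 1.16-fold and 1.14-fold. The other 6 did not pass, 3 of them (Aim2, Pycard and Casp8) with a higher and 3 (Casp1, Casp4 and Nlrp1b) with a lower fitted value in Cd226-/-. Across all 13215 genes tested, 30.9% passed, 16.1% higher and 14.8% lower. The share of 4 in 10 was near that of all genes passing in either direction, but above the share of genes higher. With only 10 genes this difference was not tested, and it is not read as a result about them. Libraries of the 2 genotypes did not overlap for 6 of the 10 (5 above, 1 below), against 44.3% of all genes tested (22.1% above, 22.3% below). The median log2 fold change of the 10 was 0.12, against -0.0045 over all genes tested. At an unadjusted p under 0.05, Aim2 and Casp1 would be added, Casp1 as lower. With Cd226-/- replicate 1 alone, the 4 genes called higher had log2 fold changes of 0.57 (Mefv), 0.33 (Gsdmd), 0.17 (Nlrc4) and 0.12 (Nlrp3). Those of Casp1 and Nlrp1b were -0.18 and -0.66. With scaling by library size alone 2 of the 10 were higher (Mefv and Gsdmd) and 1 lower (Casp1). The calls over all genes then turned from 2130 higher and 1956 lower to 1773 and 2764.

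**Figure D1:**
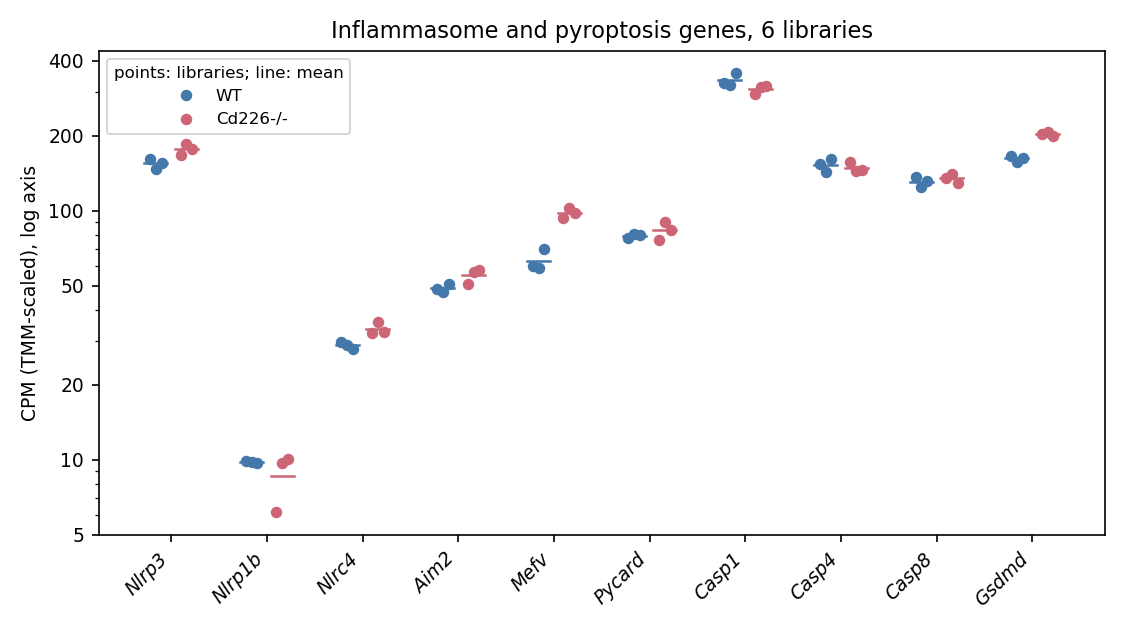
Level of each of the 10 genes in CPM (TMM-scaled, log axis) in the 3 WT (blue) and 3 Cd226-/- (red) libraries, with points for libraries and a line for the mean. The libraries of the 2 genotypes do not overlap for Nlrp3, Nlrc4, Aim2, Mefv and Gsdmd (Cd226-/- above) and Casp1 (below), and 1 Cd226-/- library lies below the other 5 for Nlrp1b.

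For 9 of the 10 genes start sites were taken from RefSeq (GRCm38.p6), which gave 12 windows of 250 bases before a start (Gsdmd was not matched). The windows were searched on both strands for letters of factors that act in stimulated macrophages: TTCNNNGAA (GAS, an interferon-γ response element), GAAA repeated after a gap of 2 bases (IRF), GAGGAAGT (PU.1), GGGA followed by CC after 4 bases (a form of the NF-kB site) and TGANTCA (AP-1). The NF-kB letters were found for Nlrp3 and Casp4 and the PU.1 letters for Nlrp1b, Aim2 and Pycard, none overlapping another match, and the other 3 motifs were found in 0 of the 9. Nlrp3, Nlrp1b and Casp4 have 2 start sites each. The other window of Nlrp3 and that of Nlrp1b held no match, while the Casp4 windows overlap and hold the same site. All 250 bases of the Pycard window are annotated exon of another gene, Gm45205. Among all 32851 windows of this length, 17.6% hold the NF-kB letters, 2.44% those of PU.1, 7.02% GAS, 2.98% IRF and 6.75% AP-1. These shares are per window, whereas the matches above are counted per gene. The window of Mefv is shown as that of the gene with the largest rise, and those of Nlrp3, Casp4 and Nlrp1b because they hold a match; lower case is sequence, capitals mark the matched letters, each runs 5′ to 3′ on the gene's strand (GRCm38.p6) and stops before the first annotated exon base. In the windows shown the match begins 186 bases before the start site for Nlrp3, 92 for Casp4 and 96 for Nlrp1b. Nlrp3 rose, while Casp4 with the same kind of match and Nlrp1b did not pass. The part of these letters in any difference between genotypes was not tested.
Mefv (chr16:3718125-3718374, minus strand): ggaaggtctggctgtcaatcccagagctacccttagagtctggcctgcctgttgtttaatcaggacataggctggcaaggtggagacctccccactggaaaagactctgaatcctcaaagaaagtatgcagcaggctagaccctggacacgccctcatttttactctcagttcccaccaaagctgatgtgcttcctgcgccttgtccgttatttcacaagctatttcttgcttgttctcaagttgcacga
Nlrp3 (chr11:59541319-59541567, plus strand): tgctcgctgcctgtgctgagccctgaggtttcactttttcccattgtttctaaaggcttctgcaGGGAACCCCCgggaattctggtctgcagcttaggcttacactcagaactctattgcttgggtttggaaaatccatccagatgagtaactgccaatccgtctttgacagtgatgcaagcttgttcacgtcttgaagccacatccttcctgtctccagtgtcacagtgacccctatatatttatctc
Casp4 (chr9:5308599-5308827, plus strand): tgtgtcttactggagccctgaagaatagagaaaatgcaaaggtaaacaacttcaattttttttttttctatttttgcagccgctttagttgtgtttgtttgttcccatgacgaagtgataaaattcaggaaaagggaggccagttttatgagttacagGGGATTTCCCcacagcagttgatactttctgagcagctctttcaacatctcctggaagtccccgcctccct
Nlrp1b (chr11:71230734-71230983, minus strand): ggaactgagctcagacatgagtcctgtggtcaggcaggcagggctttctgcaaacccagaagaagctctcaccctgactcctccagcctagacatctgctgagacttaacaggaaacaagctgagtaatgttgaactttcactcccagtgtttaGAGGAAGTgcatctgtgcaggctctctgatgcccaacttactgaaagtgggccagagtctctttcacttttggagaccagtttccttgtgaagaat

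Levels can be compared between genes only per transcript length. TPM were counts per base of the longest GENCODE transcript relative to the sum over the 33989 genes of the table with a length. By TPM the caspases and the pore former stood above the sensors, an order that depends on the gene models. With the median in place of the longest transcript, Aim2 (148 TPM in WT) came above Casp8 (80.8). Casp1 was highest in WT at 598 ± 36.7 TPM (SD, n = 3), above at least 92.5% of tested genes, followed by Gsdmd at 242 ± 7.01, Casp4 at 214 ± 12.3 and Casp8 at 135 ± 6.71. The sensor Nlrp3 came next at 103 ± 5.36 TPM, then Pycard at 55.9 ± 1.02, Mefv at 54.4 ± 5.37 and Aim2 at 46.1 ± 1.74. Nlrc4 (16.3 ± 0.56 TPM) and Nlrp1b (6.06 ± 0.0623) were lowest, and Nlrp1b was above at least 27.5% of tested genes. Both shares are lower bounds, since tested genes without a length (94.2% had one) were counted as not lower. In WT the libraries of neighbouring genes in this order overlapped only for Pycard and Mefv. In Cd226-/- the order was the same except that Mefv, at 79.9 ± 4.76 TPM, passed Pycard, at 55.4 ± 5.26, and the only neighbours that overlapped were Pycard and Aim2 (49 ± 4.09). Pycard's place depends on its gene model too, since the GENCODE transcript of 3800 bases is longer than the whole RefSeq gene of 2495 bases, and a transcript no longer than that would raise its level by at least 1.52-fold. TPM are not scaled by TMM, so differences between genotypes are given in CPM.

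**Figure D2:**
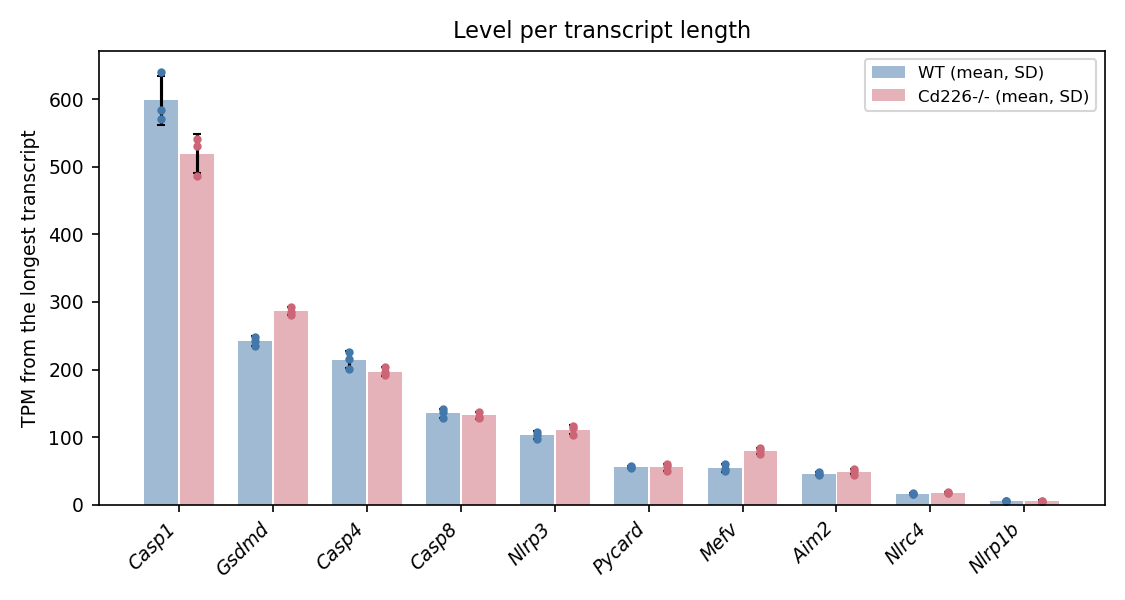
Level per transcript length in TPM for the 10 genes in the order of their WT mean, as bars for the mean with SD and points for the 3 libraries of WT (blue) and Cd226-/- (red). Casp1 is highest and Nlrp1b lowest in both genotypes, and the libraries of Mefv and Pycard overlap in WT but not in Cd226-/-.

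Among the sensors, Mefv (chromosome 16, 3707218 to 3718097, GRCm38) encodes pyrin, which responds to the action of bacterial toxins. Mefv had 60.1, 58.6 and 70 CPM in WT, in the order of replicates 1 to 3 used throughout, and 93.2, 103 and 97.7 CPM in Cd226-/-. All 3 Cd226-/- values lay above all 3 WT values (log2 fold change 0.64 ± 0.066 (SE), adjusted p = 2.30e-07 in edgeR's quasi-likelihood test). Pyrin is also abundant in neutrophils, and of the 10 neutrophil markers 3 had counts enough to test and 0 of them passed: S100a8 (log2 fold change 0.088), Camp (1.04, from 0.5 to 1.02 CPM) and Mmp8 (-0.53). Of the untested ones Elane, Mpo and Ly6g had 0 to 4 counts per library, and Retnlg was counted 0, 1 and 0 times in WT, against 2, 4 and 9 times in Cd226-/-. The part of neutrophils in the Mefv difference was not tested. With Cd226-/- replicate 1 alone the log2 fold change was 0.57 (adjusted p = 3.6e-06), and over 15 alternatives it ranged from 0.57 to 0.72 and passed in all 15.

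Nlrp3 (chromosome 11, 59541568 to 59566956) encodes the sensor of potassium loss and membrane damage, and its transcript is induced by LPS. It had 162, 146 and 156 CPM in WT and 167, 185 and 177 CPM in Cd226-/-. The lowest Cd226-/- library, replicate 1, lay only just above the highest WT library (log2 fold change 0.19 ± 0.054 (SE), adjusted p = 0.0101). The call was lost in 5 of 15 alternatives: without WT replicate 2 (adjusted p = 0.0656), without Cd226-/- replicate 2 (0.0676), with Cd226-/- replicate 1 alone (0.221, log2 fold change 0.12), with scaling by library size (0.0558) and at the stricter threshold. Over these alternatives the adjusted p ran from 0.000707 to 0.221.

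Nlrc4 (chromosome 17, 74425438 to 74459142), the core shared by the NAIP receptors for flagellin and secretion system proteins, had 29.8, 28.8 and 27.8 CPM in WT and 32.2, 35.9 and 32.5 CPM in Cd226-/-. The 2 sets did not overlap, but the test passed by little (log2 fold change 0.22 ± 0.078 (SE), adjusted p = 0.0359) and was lost in 10 of 15 alternatives, among them the removal of any library except Cd226-/- replicate 1 (adjusted p = 0.055 without WT replicate 1, 0.0716 without WT replicate 2, 0.113 without WT replicate 3, 0.186 without Cd226-/- replicate 2 and 0.0554 without Cd226-/- replicate 3). The value was 0.17 with Cd226-/- replicate 1 alone (adjusted p = 0.341).

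Aim2 (chromosome 1, 173350879 to 173466040), the receptor for DNA in the cytosol, had 48.6, 47.1 and 50.7 CPM in WT and 50.9, 56.8 and 57.6 CPM in Cd226-/-. Replicate 1 of Cd226-/- was just above the highest WT library, and the gene missed the threshold (log2 fold change 0.17 ± 0.066 (SE), adjusted p = 0.0512). It passed without Cd226-/- replicate 1 (adjusted p = 0.00866), with size factors from DESeq2 (0.0469) and after a filter at 5 CPM (0.0358), and had 0.692 with Cd226-/- replicate 1 alone.

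The sensor gene Nlrp1b (chromosome 11, 71153102 to 71230733) had 9.86, 9.76 and 9.68 CPM in WT and 6.17, 9.71 and 10 CPM in Cd226-/-. The difference rests on replicate 1, with 112 counts: the log2 fold change was -0.18 ± 0.16 (SE, adjusted p = 0.414), 0.014 without that library (0.951) and -0.66 with it alone (0.0187). Its neighbour Nlrp1a, 8397 bases away on the same chromosome and also a sensor, was scarce and fell, from 2.51 ± 0.832 to 1.05 ± 0.18 CPM (SD, n = 3; log2 fold change -1.24 ± 0.33 (SE), adjusted p = 0.00663). Of 14 alternatives the call of Nlrp1a was lost without WT replicate 2 (adjusted p = 0.0571) and with Cd226-/- replicate 1 alone (0.0873).

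The adaptor gene Pycard (chromosome 7, 127989708 to 127993867) had 77.6, 80.8 and 79.5 CPM in WT and 76, 90 and 83.8 CPM in Cd226-/-. The Cd226-/- libraries spread on both sides of WT (log2 fold change 0.07 ± 0.061 (SE), adjusted p = 0.416).

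Of the caspases, Casp1 (chromosome 9, 5298517 to 5307265), which cleaves the cytokine precursors and gasdermin D, had 326, 319 and 357 CPM in WT and 294, 314 and 315 CPM in Cd226-/-. All 3 Cd226-/- values lay below WT, by little, and the test was not passed (log2 fold change -0.12 ± 0.053 (SE), adjusted p = 0.0906). It passed as lower with scaling by library size (adjusted p = 0.0149, log2 fold change -0.17) and with Cd226-/- replicate 1 alone (0.0461, -0.18). Casp4 (chromosome 9, 5308828 to 5336783), which in mice encodes caspase-11, the receptor for LPS in the cytosol, begins 1562 bases after Casp1. Casp4 had 153, 143 and 160 CPM in WT and 156, 144 and 145 CPM in Cd226-/-, which overlapped (log2 fold change -0.037 ± 0.054 (SE), adjusted p = 0.647). The third gene of that cluster, Casp12, starts 8646 bases further and fell (8.42 ± 0.667 to 5.48 ± 0.189 CPM (SD, n = 3), log2 fold change -0.62 ± 0.15 (SE), adjusted p = 0.00261), with a range of -0.69 to -0.59 over 15 alternatives, and passed in all 15. Casp8 (chromosome 1, 58795374 to 58847503), an initiator caspase of apoptosis that can also cleave gasdermin D and IL-1β, had 136, 124 and 132 CPM in WT and 136, 141 and 129 CPM in Cd226-/-. These overlapped (log2 fold change 0.049 ± 0.054 (SE), adjusted p = 0.528), and the sign turned with scaling by library size (-0.0048).

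The executor Gsdmd (chromosome 15, 75862327 to 75867408) encodes gasdermin D, whose amino-terminal part forms the pore. It had 166, 157 and 162 CPM in WT and 203, 207 and 198 CPM in Cd226-/-. The spread within each genotype was small beside the gap between them (log2 fold change 0.33 ± 0.049 (SE), adjusted p = 2.16e-05). Gsdmd passed in all 15 alternatives, with a log2 fold change of 0.27 to 0.35, and was 0.33 with Cd226-/- replicate 1 alone (adjusted p = 9.12e-05).

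**Figure D3:**
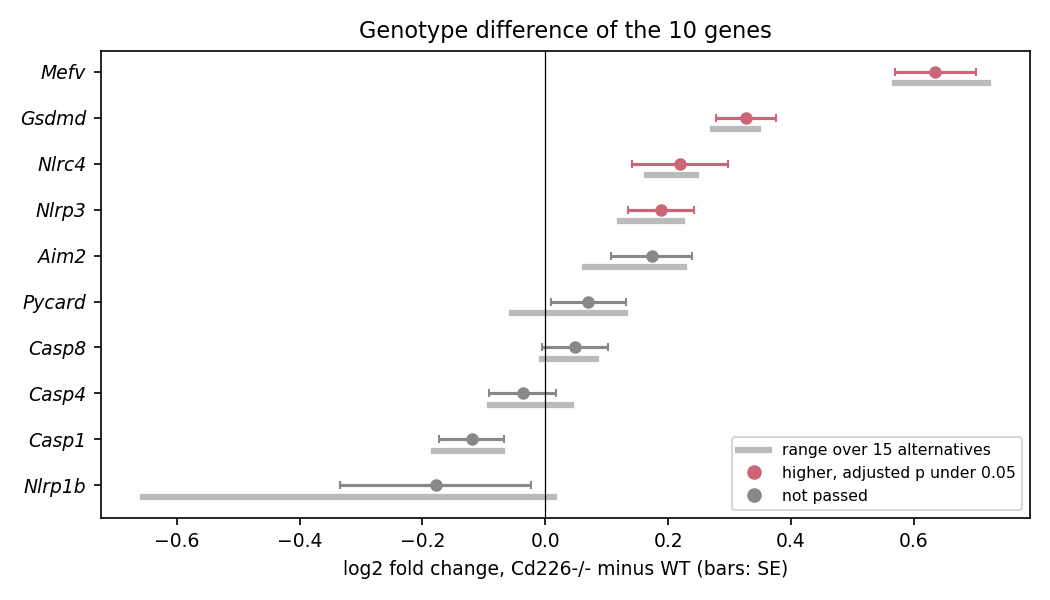
Log2 fold change (Cd226-/- minus WT) of the 10 genes with SE as bars, red where the adjusted p was under 0.05, and the range over 15 alternatives as grey lines. Mefv and Gsdmd stay well above 0, and the widest range is that of Nlrp1b, from -0.66 to 0.014.

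Whether genes of the same chain changed unequally was read from the ratio of their counts within each library, where scaling cancels, over 9 pairs. Casp1 had 1.96, 2.03 and 2.2 counts for each count of Gsdmd in WT and 1.45, 1.52 and 1.59 in Cd226-/-. The ratio of the protease to its substrate was thus lower in every Cd226-/- library, with a difference in log2 ratio of -0.45 (exact permutation test, two-sided, p = 0.1, adjusted over 9 pairs p = 0.18). Gsdmd had 1.08, 1.1 and 1.01 counts for each of Casp4 in WT, against 1.3, 1.44 and 1.36 in Cd226-/- (difference 0.36, exact permutation p = 0.1, adjusted p = 0.18). Mefv had 0.774, 0.725 and 0.88 counts for each of Pycard in WT and 1.23, 1.14 and 1.17 in Cd226-/- (difference 0.57, exact permutation p = 0.1, adjusted p = 0.18). The pairs Nlrc4/Pycard (0.15) and Nlrp1b/Pycard (-0.28) did not overlap between genotypes either, the latter -0.12 without Cd226-/- replicate 1. Casp1/Casp4 (-0.083), Casp1/Casp8 (-0.17), Nlrp3/Pycard (0.12) and Aim2/Pycard (0.11) overlapped. With 3 libraries against 3 no exact p can be below 0.1, so none of the 9 could pass 0.05.

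**Figure D4:**
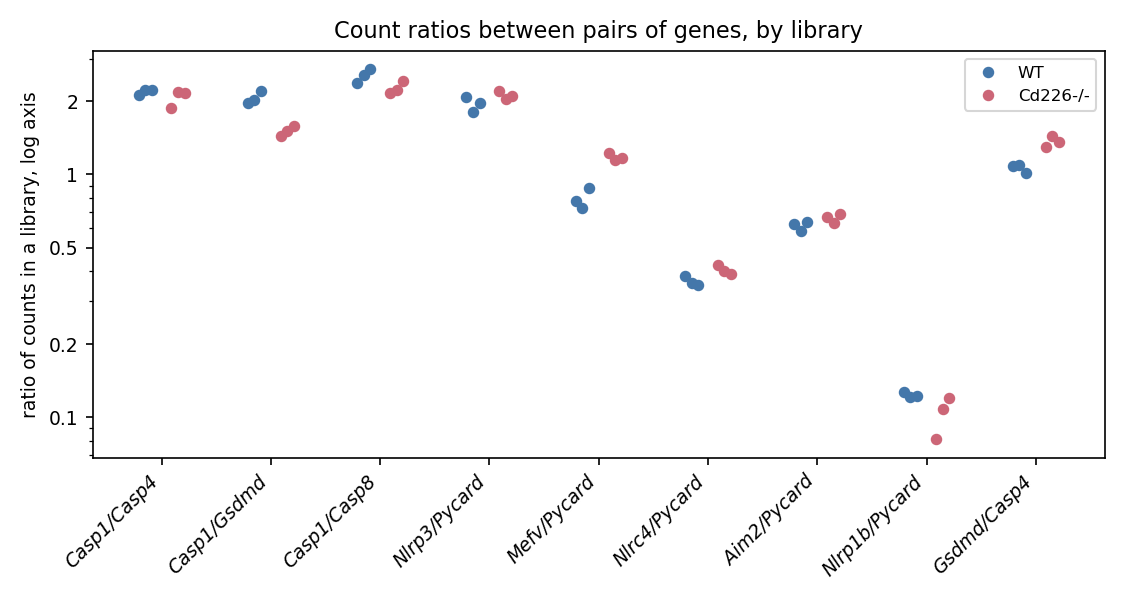
Ratio of the counts of 2 genes within a library (log axis) for 9 pairs, with a point for each of the 3 WT (blue) and 3 Cd226-/- (red) libraries. Casp1/Gsdmd is lower and Gsdmd/Casp4 and Mefv/Pycard are higher in every Cd226-/- library.

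The rest of the pathway was read from 7 lists, whose counts stand against 16.1% of all tested genes higher and 14.8% lower. A list with a share near these is not set apart by its count. Of 12 tested sensors and receptors outside the 10, 2 were higher and 4 lower (median log2 fold change -0.014). The NAIP receptors that hand their ligands to NLRC4 were measured beside it: Naip2 and Naip5 fell, from 111 ± 6.76 to 94.2 ± 2.65 CPM (SD, n = 3; log2 fold change -0.23, adjusted p = 0.0031) and from 35.3 ± 1.28 to 30.5 ± 1.27 CPM (-0.21, adjusted p = 0.0331), while Naip1 (-0.017) and Naip6 did not pass. Naip6 went from 47 ± 1.71 to 52.2 ± 0.173 CPM (SD, n = 3), with all 3 Cd226-/- libraries above WT (0.15, adjusted p = 0.0709). The Naip2 call was lost with Cd226-/- replicate 1 alone (adjusted p = 0.0517). The Naip5 call was lost in 8 of 15 alternatives and its transcript is 96.9% identical to Naip6 over 4398 bases, so the counts of both are uncertain. So is that of Naip1, which is 94.7% identical to Naip3 over 4215 bases and 92% to Naip5 over 4280 bases. The nucleic acid sensor Zbp1 rose (log2 fold change 0.24, adjusted p = 0.00102), as did Ifi204 (0.14, adjusted p = 0.0487), which shares long stretches with Mndal and Ifi205. Ifi204 is also 96.9% identical to Ifi211 over 1363 bases and 92% to Ifi207 over 933 bases, and neither symbol was in the count table. Its count is thus uncertain, and its call, close to the threshold, was not run through the alternatives. Dhx33, a helicase linked to NLRP3, fell (-0.44, adjusted p = 0.0194), a call lost in 4 of 15 alternatives. The RNA sensor Ddx58 did not pass (-0.011).

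Of 22 triggers and licensing partners, 3 rose and 4 fell (median -0.028). The ATP-gated channel P2rx7, which lets potassium out and so triggers NLRP3, had 124, 127 and 124 CPM in WT and 75.1, 80.4 and 83.4 CPM in Cd226-/-. Its 2 sets lay far apart (log2 fold change -0.65 ± 0.054 (SE), adjusted p = 7.06e-09). Panx1, a large-pore channel, fell by a like amount (42.3 ± 3.02 to 27.3 ± 1.4 CPM (SD, n = 3), -0.63 ± 0.078 (SE), adjusted p = 1.76e-06), and Nek7, the kinase that binds NLRP3 on activation, fell from 87.5 ± 1.31 to 75.3 ± 2 CPM (-0.22, adjusted p = 0.0039). These 3 passed in all 15 alternatives. The fourth, Lgals8, was at the threshold (-0.13, adjusted p = 0.0498). The 3 that rose were Irf8 (224 ± 16.9 to 347 ± 20.2 CPM (SD, n = 3), log2 fold change 0.63, adjusted p = 4.24e-08), which is known to drive Naip genes and is also a gene of B and dendritic cells, whose markers were higher, together with Trim30a (0.30) and Irf1 (0.30). Gbp2 and Gbp5, which open bacterial vacuoles and coat LPS, did not pass (-0.12 and 0.23, adjusted p = 0.373 and 0.117). Gbp2 passed as lower without WT replicate 2 (adjusted p = 0.00347), and Gbp5 as higher without WT replicate 3 (0.0137), without a filter (0.000612) and by limma-voom (0.0324).

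The cytokines cleaved downstream and their partners held 4 higher and 0 lower of 8 (median 0.17). Il18 had 10.3, 14.1 and 11.4 CPM in WT and 17.6, 21.7 and 19.1 in Cd226-/- (log2 fold change 0.71 ± 0.12 (SE), adjusted p = 0.000101). Il1b and Hmgb1, an alarmin, did not pass (0.098 and -0.17, adjusted p = 0.211 and 0.191). The receptor antagonist Il1rn rose most, 2.14-fold (673 ± 29 to 1442 ± 88 CPM (SD, n = 3), adjusted p = 1.89e-12), and Il1a and Il18bp, the decoy for IL-18, rose by 0.23 each, a call that Il1a lost with Cd226-/- replicate 1 alone (0.16, adjusted p = 0.0565). Without a known strand setting the counts of 3 of these genes are uncertain: Il18bp overlaps Numa1 (up to 2650 counts in a library) and Il18 overlaps Bco2 and Tex12 (up to 159) on the other strand, and Hmgb1 overlaps 7 genes (up to 1166).

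Of 13 tested genes in the list for pores, membrane rupture and repair, which also held the enzyme gene Acod1, 2 rose and 2 fell (median -0.081). The other gasdermin with counts enough to test, Dfna5 (gasdermin E), was near 2 CPM and did not pass (-0.38 ± 0.34 (SE), adjusted p = 0.432); with Cd226-/- replicate 1 alone it was lower (-1.42, adjusted p = 0.0412). Ninj1, which ruptures the membrane after the pore forms, did not pass (0.12, adjusted p = 0.061), though it did by DESeq2's Wald test (0.038), after a filter at 5 CPM (0.0311) and with Cd226-/- replicate 1 alone (0.0252). Chmp4b, of the ESCRT machinery that removes pores, rose (0.17, adjusted p = 0.00946), as did Lamtor2 (0.22, 0.0204), while its ESCRT partner Vps4b fell (-0.13, 0.0427); the calls of Chmp4b, Lamtor2 and Vps4b were lost in 1, 5 and 9 of 15 alternatives. Acod1, which makes itaconate, fell from 4175 ± 235 to 3062 ± 64.9 CPM (SD, n = 3; log2 fold change -0.45, adjusted p = 1.22e-06).

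Of 6 tested caspases outside the 10, 2 rose and 1 fell (median 0.15). The fall was that of Casp12, and Casp9 and Casp2 did not pass (0.052 and -0.12). Around caspase-8, of 13 genes 3 rose and 1 fell (median 0.079). Cflar, which encodes the brake c-FLIP and lies 36489 bases from Casp8, rose from 598 ± 30.2 to 726 ± 24.6 CPM (SD, n = 3; 0.28, adjusted p = 0.000235). The necroptosis kinase Ripk3 and the ubiquitin ligase Birc2 rose (0.27 and 0.24), Xiap fell (-0.14, adjusted p = 0.0416), and Mlkl, the pore former of necroptosis, did not pass (0.079), nor did the receptor Tnfrsf1a (-0.061). The calls of Ripk3, Birc2 and Xiap were lost in 4, 2 and 10 of 15 alternatives.

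Among 13 inhibitors, 6 rose and 3 fell (median 0.20), against 30.9% of all tested genes that passed in either direction. Tnfaip3, the ubiquitin editor A20, rose by 0.47 on the log2 scale (228 to 315 CPM on average, adjusted p = 1.41e-07), and Nlrc5, best known as the MHC class I transactivator, by 0.27 (adjusted p = 0.000119). Serpinb1a, which restrains caspase activation, fell from 81.1 ± 11.1 to 49.7 ± 4.1 CPM (SD, n = 3; -0.71 ± 0.094 (SE), adjusted p = 0.000117), whereas its relative Serpinb6b rose (0.53, adjusted p = 0.000354). The other listed serpins fell as well in edgeR's test: Serpinb9b (-0.47, adjusted p = 0.00211) and Serpinb9 (-0.31, adjusted p = 0.0231). The libraries of the genotypes overlapped for Serpinb9. Sirt1 and Hdac6 did not pass (-0.026 and -0.017).

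**Figure D5:**
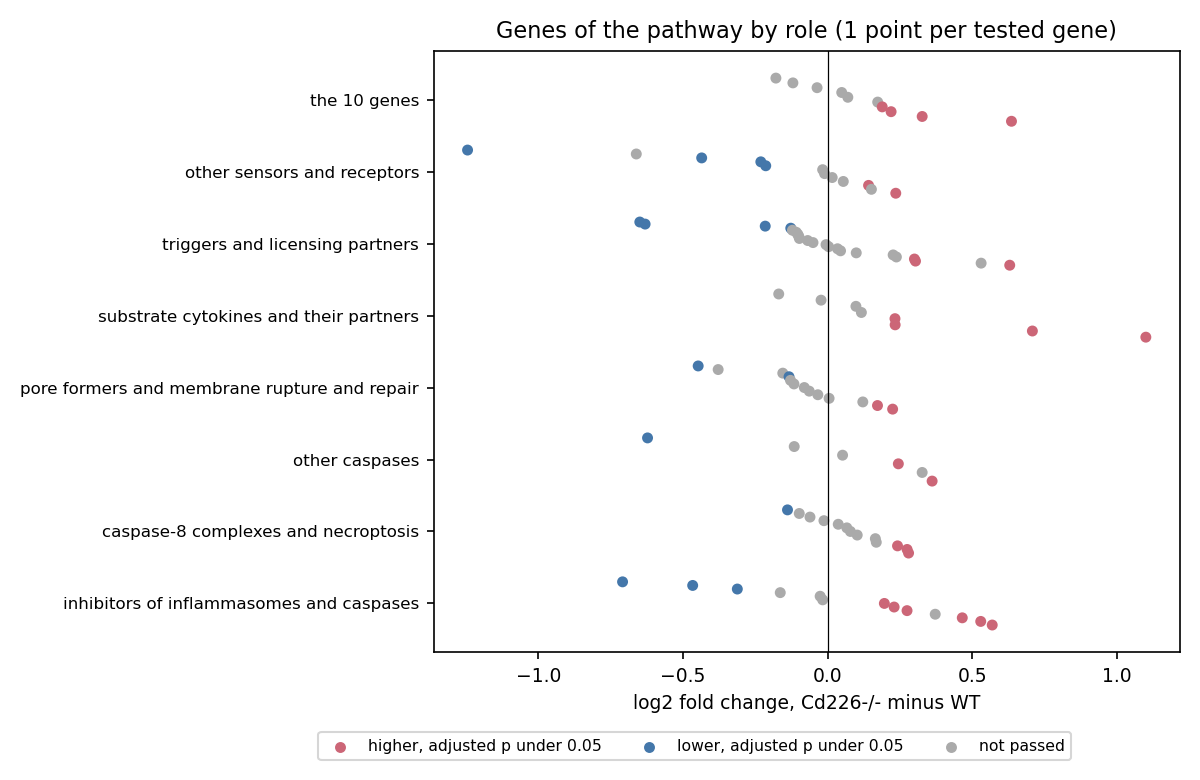
Log2 fold change (Cd226-/- minus WT) of every tested gene of the 10 and of 7 further lists, 1 point per gene, red or blue where the adjusted p was under 0.05. The largest fall is Nlrp1a (-1.24) and the largest rise Il1rn (1.10), and each list except that of the 10 genes and that of the substrate cytokines has calls in both directions.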

How the data were processed

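The authors deposited 1 table of raw read counts per gene symbol with a column for each of the 6 libraries, matched to samples by name, and 0 columns were unused. The aligner was HISAT2 and the build GRCm38, per the submitters' processing notes. For the counting tool, annotation, strand setting and multiply mapped reads, nothing is given in the sources used here, and counts of overlapping genes and near copies are uncertain. Counts were filtered (filterByExpr), scaled by TMM and tested over 13215 genes with edgeR 4.0.16 (robust quasi-likelihood F-test, two-sided, Benjamini-Hochberg) in R 4.3.3, with genotype as the only term. An SE is the size of the log2 fold change over the root of its F. TPM used GENCODE M21 lengths, which 94.2% of tested genes had. Near copies were transcripts with at least 90% identity over 500 bases (BLAST). A count of 0 allows up to 3 counts (0.136 to 0.18 CPM), counting error only.

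The steps were run on simulated data. Far fewer genes changed in them than were called here, and none by as little as Nlrp3 or Nlrc4, so that run does not cover changes of this size. The 10 genes and the lists were chosen with earlier results of these data known. The text names the 10, from each list up to 4 genes that passed (by p) and up to 2 that did not (by level), and Il1b, Il18, Naip5, Nek7, Dfna5 and Cd226, except for some items that are not reported here. Values had been seen when Ifi204, Lgals8, Irf1, Serpinb9, Serpinb9b, single marker genes and the promoters shown were picked. The alternatives (15 per gene, 14 for the scarcest) were DESeq2 (1.42.0) size factors or Wald test, library size alone, no filter, a mean of 5 CPM, limma-voom (limma 3.58.1), a replicate block, an adjusted p under 0.01, Cd226-/- replicate 1 alone against WT, and each library left out. For levels per length they were the median length and, chosen after seeing the data, the APPRIS principal transcript.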

Additional observations from a re-analysis of the deposited data

How the results depend on the processing

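Of the 10 genes, 4 were called higher and 0 lower. The numbers were 2 and 1 with scaling by library size, 2 and 0 at an adjusted p under 0.01, and 2 to 5 and 0 without each library in turn. With Cd226-/- replicate 1 alone the log2 fold changes of Mefv and Gsdmd were 0.57 and 0.33. Those of Casp1 and Nlrp1b were then -0.18 and -0.66, each further below 0 than with all libraries (-0.12 and -0.18). Over all genes 4086 were called, 2636 (1167 lower) at an adjusted p under 0.01 and 3263 to 4379 without each library in turn. Of 150 values for the 10 genes, 124 kept their direction and side of the threshold. The log2 fold changes that turned were -0.0048 for Casp8, -0.0491 for Chmp3 and -0.00147 for Casp9 (library size), -0.00696 for Chmp3 (no filter), 0.000939 for Ddx58 (mean of 5 CPM), and, with Cd226-/- replicate 1 alone, -0.055 for Pycard, 0.041 for Casp4, 0.14 for Naip1, 0.041 for Tnfrsf1a, 0.12 for Sirt1 and 0.14 for Hdac6. Without each library in turn values crossed 0 for Nlrp1b (-0.30 to 0.014), Casp4 (-0.0803 to 0.00118), Naip1 (-0.10 to 0.025), Ddx58 (-0.026 to 0.017), Chmp3 (-0.056 to 0.051), Casp9 (-0.0103 to 0.0814), Sirt1 (-0.10 to 0.043) and Hdac6 (-0.11 to 0.063). None of these was called, and the cause was not tested. With the median transcript length WT levels became 260 TPM for Casp1, 80.8 for Casp8, 45.8 for Nlrp3, 43 for Pycard, 26.7 for Mefv, 148 for Aim2, 10.6 for Nlrc4 and 2.75 for Nlrp1b, so that Aim2 passed Casp8, Nlrp3, Pycard and Mefv. With the principal transcript, an alternative chosen after seeing the data, they became 516 for Casp1, 208 for Gsdmd, 245 for Casp4, 117 for Casp8, 88.8 for Nlrp3, 48.2 for Pycard, 46.9 for Mefv, 39.7 for Aim2, 14.1 for Nlrc4 and 5.46 for Nlrp1b, so that Gsdmd and Casp4 changed places. Same-numbered libraries of the 2 genotypes did not deviate together (r = -0.0128 to 0.0151), and not every library correlated best with its own number. With the replicate block 4137 genes were called, 2185 higher and 1952 lower, and 4 and 0 of the 10.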
